A study of Mus musculus with 12 samples.

Results

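A group of 40 genes was lower in *Prdm10*-targeted mouse embryonic stem cells (mESCs) at Day 4 after hydroxytamoxifen (OHT), with small differences at Day 2. The genes were chosen by measured values, out of 11328 genes with a mean of at least 3 CPM (a gene's expected count as a share of its library total, scaled to the same total in every library) and 54146 genes in the files. A gene was kept if its mean CPM in OHT over that in vehicle, with 0.1 added to both, was -0.75 or less on the log2 scale at Day 4 and between -0.25 and 0.25 at Day 2. All 3 OHT libraries also had to be below all 3 vehicle libraries at Day 4, and mitochondrially encoded genes and 2 genes of the amino acid response were left out by name. Since both days entered the choice, the differences of the 40 genes between the groups are descriptions and carry no test.

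All 4 groups were *Prdm10*F/F; *Rosa26*-CreERT2 mESCs of strain C57BL/6, grown with serum and LIF, which carry floxed alleles of *Prdm10* and a recombinase that OHT activates. The groups were exposed for 24 h to 50 nM OHT or to the same volume of ethanol (EtOH) and were harvested at Day 2 or Day 4, with 3 libraries in each. The labels do not say whether the 3 libraries of a group came from separate cultures, so that the p-values below measure the spread between these libraries, which may be technical. No group had OHT without floxed alleles, so that the response to OHT or to the recombinase and that to the loss of *Prdm10* cannot be told apart.

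The 12 libraries held 35017667 to 41409992 expected counts, and the lowest count behind any value of the 40 genes was 58, for *Egr1* at Day 4. *Prdm10* itself was higher in the libraries labelled OHT, at 19.6, 21.1 and 21.1 CPM in EtOH and 55.1, 58.8 and 58.0 CPM in OHT at Day 2. At Day 4 it had 21.1, 23.0 and 23.9 CPM in EtOH and 51.2, 54.1 and 51.2 CPM in OHT. The removed part is a single exon, so that a count over the whole gene does not check the deletion, and directions below are those of the libraries labelled OHT. All 10 markers of mESCs were at or above 3 CPM, and 0 of 10 fibroblast markers reached 3 CPM. The marker sums moved with the groups at Day 4. Those of mESCs were 3354 to 3472 CPM in EtOH and 3769 to 3831 CPM in OHT, and those of 9 trophectoderm genes, 4 of them at or above 3 CPM, were 101 to 103 CPM in EtOH and 122.9 to 126 CPM in OHT. At Day 2 the ranges were 3693.5 to 3759.8 and 3629.5 to 3700.5 CPM for mESCs and 127 to 131 and 130.3 to 134 CPM for trophectoderm, overlapping in both. The sums of 8 primitive endoderm markers did not overlap at Day 2, at 52.5 to 58.0 CPM in EtOH and 59.3 to 68.5 CPM in OHT. The low sums of fibroblast markers (5.17 to 6.05 CPM in EtOH, 4.56 to 5.13 CPM in OHT) and of 6 mesoderm markers (4.40 to 5.18 and 5.67 to 6.15 CPM) also did not overlap at Day 4, whereas those of primitive endoderm did. The part of any of these in the values of the 40 genes was not tested.

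For background, ATF4 is a transcription factor made when the integrated stress response is active, as in a shortage of amino acids or of properly folded proteins. It binds C/EBP-ATF response elements (CARE) and turns on genes for amino acid transport and synthesis. PRDM10 is a zinc finger transcription factor that binds promoters. mESCs also hold low levels of RNA from genes best known from neurons, testis or immune cells.

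The 40 genes had a Day 4 mean in EtOH between 1.69 and 2.52 times that in OHT, with a median of 1.97. By function they included 4 targets of ATF4, 4 neuronal genes, 3 histone genes, 2 interferon response genes, and single genes of glycolysis, the ERK response, the endoplasmic reticulum and the germline. Of the 40, 34 were annotated as protein coding (85% against 94.2% of the 11328 genes), and they lay on 14 chromosomes with at most 5 on any of them. Their counts were low, with a median of 7.91 CPM against 28.8 CPM over all 11328 genes, a measure not scaled for length. The longest transcript had a median length of 3235.5 bases against 3361 and a median GC content of 50.5% against 49.4%.

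**Figure D1:**
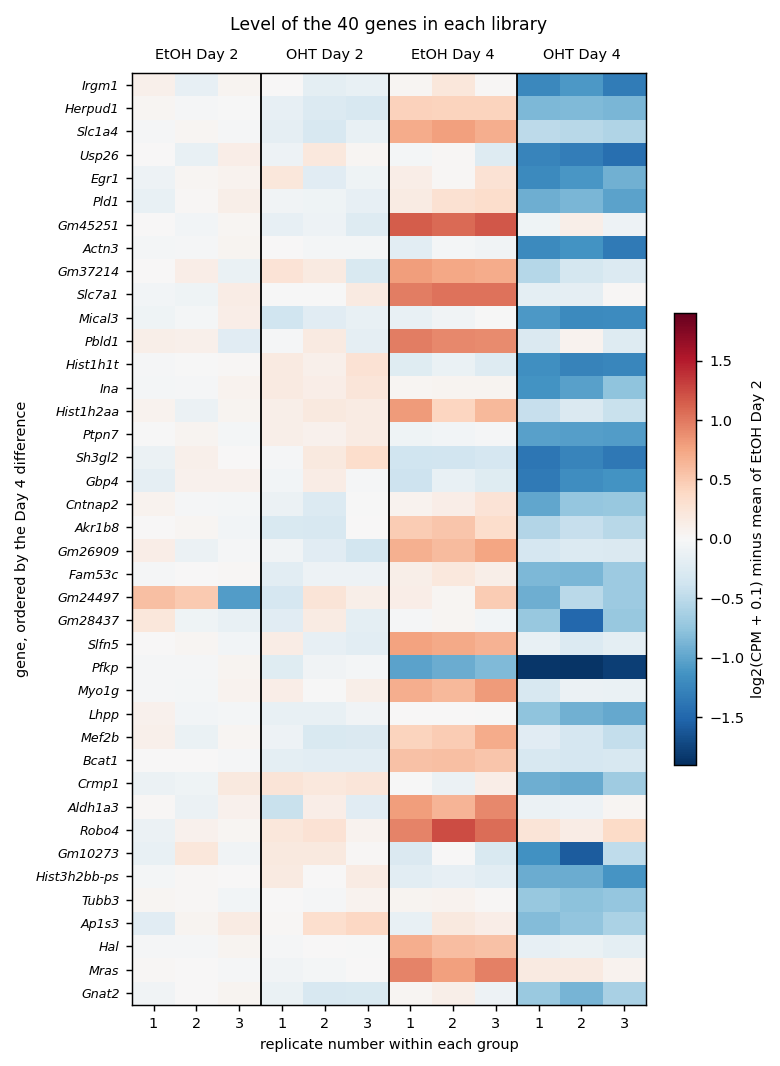
Heat map of the 40 genes (rows, ordered by the Day 4 difference) in the 12 libraries (columns, by group and replicate number). Colour is log2(CPM + 0.1) minus the mean of the 3 EtOH libraries of Day 2, and the median gene lay between 0.12 and 0.26 above that mean in the EtOH libraries of Day 4 and between -0.81 and -0.68 in the OHT libraries of Day 4.

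Of the 40 genes, 25 matched a RefSeq promoter table (GRCm38.p6, 250 bases before to 50 after each start, 33 windows for these genes). The CARE core, TGATGNAA on either strand, was present in 4 of the 33 windows (12.1%), against 3.97% of all 32851 windows. The windows of the whole table were not limited to genes of at least 3 CPM. The shares, here and for the motifs below, therefore compare unlike sets of genes. The stretches of those 4 genes are shown from 150 bases before the start to 19 after, 5′ to 3′ along the gene, because *Herpud1* and *Slc1a4* are among the amino acid and stress genes described next. Capitals mark the CARE core and, in *Tubb3*, also the EGR core described further on.

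Herpud1 (chr8:94386279-94386448, plus strand): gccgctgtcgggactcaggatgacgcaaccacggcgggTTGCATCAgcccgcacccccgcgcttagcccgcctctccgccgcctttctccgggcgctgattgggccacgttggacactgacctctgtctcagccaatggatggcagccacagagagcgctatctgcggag
Slc1a4 (chr11:20332694-20332863, minus strand): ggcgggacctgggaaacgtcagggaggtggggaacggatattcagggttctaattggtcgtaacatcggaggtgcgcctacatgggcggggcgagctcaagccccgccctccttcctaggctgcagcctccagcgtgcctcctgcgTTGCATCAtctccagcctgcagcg
Tubb3 (chr8:123411403-123411572, plus strand): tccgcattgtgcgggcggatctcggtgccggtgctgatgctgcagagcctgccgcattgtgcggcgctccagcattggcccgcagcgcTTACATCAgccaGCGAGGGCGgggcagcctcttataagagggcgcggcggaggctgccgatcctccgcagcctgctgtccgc
Usp26 (chrX:51801214-51801383, minus strand): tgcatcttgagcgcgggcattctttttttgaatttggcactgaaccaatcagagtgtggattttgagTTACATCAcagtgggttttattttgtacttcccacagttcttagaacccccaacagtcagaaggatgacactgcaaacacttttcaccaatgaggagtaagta

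In *Herpud1* and *Slc1a4* the core read TTGCATCA on the gene's strand, beginning 112 and 4 bases before the start, and in *Tubb3* and *Usp26* it read TTACATCA. The windows of *Slc7a1* and *Bcat1* did not hold these letters. Over the list of 40 ATF4 targets, 34 had a window and 10 of those held the core, among them *Asns*, *Chac1* and *Nupr1*. These matches describe letters in short windows and say nothing of binding.

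The amino acid and stress genes among the 40 were *Slc1a4*, *Slc7a1*, *Bcat1* and *Herpud1*, and all 4 were higher in vehicle at Day 4 than at Day 2. *Slc1a4* (chr11:20302180-20332713) encodes a transporter of alanine, serine, cysteine and threonine. Its CPM were 19.2, 20.0 and 19.2 in EtOH and 17.3, 15.7 and 17.6 in OHT at Day 2. At Day 4 *Slc1a4* had 31.9, 33.5 and 31.5 CPM in EtOH and 13.7, 13.5 and 13.1 CPM in OHT. The OHT libraries of Day 4 were thus 2.40-fold below the vehicle libraries of that day and also below the OHT libraries of Day 2, and no groups overlapped. *Slc7a1* (chr5:148327410-148399904), the carrier of arginine and lysine, had CPM of 36.6, 35.8 and 41.9 in EtOH and 37.7, 37.9 and 42.6 in OHT at Day 2. At Day 4 *Slc7a1* had 74.4, 77.5 and 77.9 CPM in EtOH and 33.5, 33.6 and 38.8 CPM in OHT. Here the vehicle level was higher at Day 4 than at Day 2 in every library, and the OHT libraries of Day 4 overlapped those of Day 2 in 1 library, with the other 2 slightly below, so that the 2.17-fold gap at Day 4 came mostly with a higher vehicle level. *Bcat1* (chr6:144993835-145076184), the cytosolic enzyme that transfers the amino group of branched-chain amino acids, had CPM of 167, 166 and 163 in EtOH and 146, 144 and 144 in OHT at Day 2. At Day 4 *Bcat1* had 243, 245 and 239 CPM in EtOH and 134, 133 and 134 CPM in OHT. Its replicates lay within a few percent of each other, and the vehicle libraries were 1.81-fold above the OHT libraries at Day 4. *Herpud1* (chr8:94386438-94395377) encodes a membrane protein of the endoplasmic reticulum that takes part in the removal of misfolded proteins. Its CPM were 20.3, 19.3 and 19.5 in EtOH and 17.7, 16.5 and 16.0 in OHT at Day 2. At Day 4 *Herpud1* had 26.7, 26.4 and 26.5 CPM in EtOH and 10.9, 10.98 and 10.7 CPM in OHT, a 2.44-fold gap at Day 4 with the OHT libraries below those of Day 2.

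The Day 2 values of these genes were not all alike. *Slc1a4*, *Bcat1* and *Herpud1* were already lower in every OHT library than in every EtOH library at Day 2, at DESeq2 log2 fold changes of -0.25 ± 0.08 (SE), -0.23 ± 0.04 (SE) and -0.28 ± 0.08 (SE), whereas the value of *Slc7a1* was 0.01 ± 0.07 (SE). At Day 4 the values were -1.26 ± 0.07 (SE), -0.85 ± 0.03 (SE), -1.29 ± 0.08 (SE) and -1.11 ± 0.06 (SE). The label of a fall at Day 4 alone therefore means a small difference at Day 2 for *Slc1a4*, *Bcat1* and *Herpud1*, not none. With TMM or DESeq2 scaling in place of library totals, *Herpud1* no longer met the rule.

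**Figure D2:**
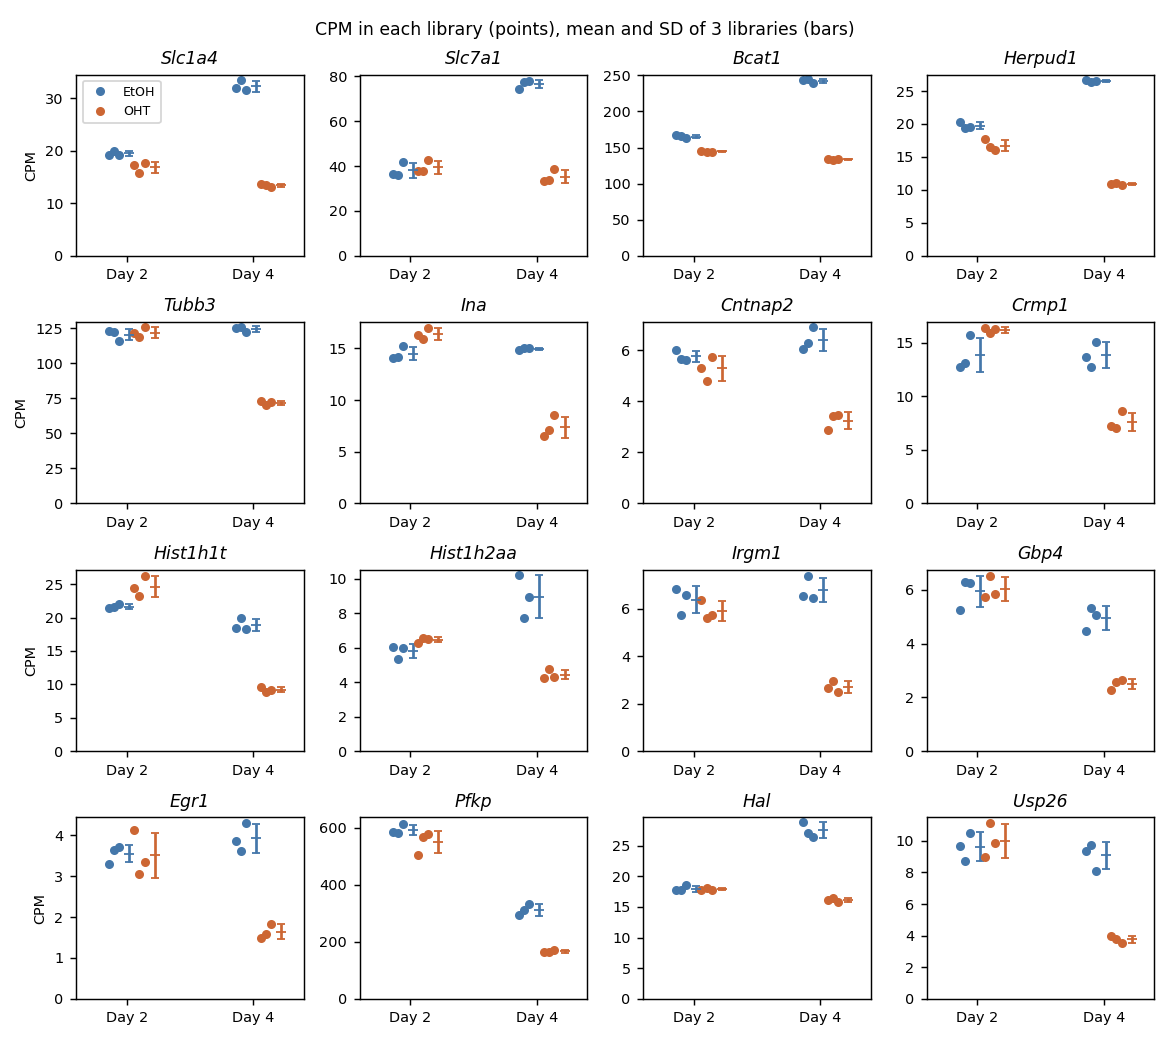
CPM (vertical axes, from 0) of 16 of the genes in each library at Day 2 and Day 4, with points for libraries and bars for the mean and SD of 3 libraries. In *Slc7a1*, *Bcat1*, *Slc1a4*, *Herpud1* and *Hal* the EtOH libraries were higher at Day 4 than at Day 2. The OHT libraries of Day 4 stood below all other libraries in *Tubb3*, *Ina* and *Usp26*. The same held in *Bcat1*, *Slc1a4*, *Herpud1* and *Hal*, but not in *Slc7a1*.

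The other genes of the ATF4 list moved mostly the same way, but on both days. Of 34 list genes tested at Day 4, 29 were called lower and 2 higher (DESeq2, adjusted p below 0.05 and mean normalised count over 100), where 21.7% of all 11552 genes tested were called lower and 23.6% higher. Without the 4 genes of the group, 25 of 30 were lower, with a median log2 fold change of -0.54 against 0.01 over all genes tested. The list was chosen with earlier results of these data known, and a listed gene that the rule left out by name would count among the 30. Of the same 30, 20 were called lower and 0 higher at Day 2. Among the others, *Chac1*, which degrades glutathione, had 10.2, 10.3 and 10.2 CPM in EtOH and 1.63, 1.56 and 1.502 CPM in OHT at Day 4 (log2 fold change -2.71 ± 0.16 (SE), adjusted p = 3.4e-65). *Nupr1*, a small stress-induced nuclear protein, had 8.80, 8.89 and 9.22 CPM in EtOH and 1.79, 1.95 and 1.96 CPM in OHT at Day 4 (log2 fold change -2.24 ± 0.15 (SE), adjusted p = 3.0e-46). Both were lower at Day 2 as well, by less (log2 fold changes of -0.50 and -0.36, adjusted p = 0.0219 and 0.0432), which kept them outside the group. *Ddit3*, the stress-induced factor CHOP, and *Ppp1r15a*, which restores translation after stress, were the genes called higher, at 0.40 ± 0.15 (SE) (adjusted p = 0.0238) and 0.26 ± 0.07 (SE) (adjusted p = 0.00107). *Ddit3* was not called when any 1 of the 6 libraries was left out or with a replicate block, whereas *Ppp1r15a* was.

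Amino acid transporters as a class were less uniform. Of 27 tested, 14 were called lower and 3 higher at Day 4 (21.7% and 23.6% of all genes tested). Outside the group 12 of the 25 were lower, with a median log2 fold change of -0.19. The most negative of these were *Slc7a7*, a partner of the 4F2 heavy chain for cationic amino acids (-0.64 ± 0.06 (SE), adjusted p = 2.8e-28), and *Slc7a5*, the large neutral amino acid carrier (-0.61 ± 0.04 (SE), adjusted p = 4.9e-46). *Slc7a5* had 140, 146 and 154 CPM in EtOH and 94.8, 93.2 and 99.8 CPM in OHT at Day 4, with no overlap. The most positive were *Slc43a2* and *Slc6a15*, which also carry neutral amino acids, at 0.28 ± 0.10 (SE) and 0.25 ± 0.07 (SE) (adjusted p = 0.0132 and 0.00290). The 3 higher calls became 1 without Day4_EtOH replicate 3 or Day4_OHT replicate 1 or 2, *Slc43a2* being among those lost, and 5 with edgeR. Among 28 genes of endoplasmic reticulum stress tested, 11 were called lower and 1 higher (21.7% and 23.6% of all genes tested), and *Herpud1* was the only one of the 40 on that list. The higher calls were 0 without Day4_EtOH replicate 3 or Day4_OHT replicate 1 and 2 without Day4_EtOH replicate 1.

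The neuronal genes of the group were *Tubb3*, *Ina*, *Crmp1* and *Cntnap2*. They were near level in vehicle between the days, unlike the amino acid genes, and were lower in OHT at Day 4. *Tubb3* (chr8:123411424-123422015), the neuronal β-tubulin, had CPM of 123.1, 122 and 116 in EtOH and 121, 119 and 126 in OHT at Day 2. At Day 4 *Tubb3* had 125, 126 and 122 CPM in EtOH and 72.9, 70.2 and 72.3 CPM in OHT. The other 9 libraries lay between 116 and 126 CPM, and the OHT libraries of Day 4 were 1.73-fold below the vehicle. *Ina* (chr19:47014698-47025327), which encodes the neuronal intermediate filament α-internexin, had CPM of 14.1, 14.2 and 15.2 in EtOH and 16.3, 15.9 and 17.0 in OHT at Day 2. At Day 4 *Ina* had 14.8, 15.0 and 15.0 CPM in EtOH and 6.56, 7.07 and 8.52 CPM in OHT. *Crmp1* (chr5:37241940-37292133), a cytosolic protein of axon guidance that binds tubulin, had CPM of 12.8, 13.1 and 15.7 in EtOH and 16.4, 15.9 and 16.2 in OHT at Day 2. At Day 4 *Crmp1* had 13.7, 12.7 and 15.1 CPM in EtOH and 7.19, 7.01 and 8.60 CPM in OHT. In both genes the OHT libraries were slightly above all EtOH libraries at Day 2 and 2.02-fold and 1.82-fold below them at Day 4. *Cntnap2* (chr6:45059357-47304213), a cell adhesion protein of the neurexin family and one of the longest genes of the genome, had 6.05, 6.27 and 6.89 CPM in EtOH and 2.86, 3.40 and 3.46 CPM in OHT at Day 4.

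Calls at Day 4 were lower for 12 and higher for 4 of 23 neuronal genes tested (21.7% and 23.6% of all genes tested). Outside the group 8 of the 19 were lower, with a median log2 fold change of -0.27. *Gng3* and *Uchl1*, a G protein subunit and a ubiquitin hydrolase of neurons, had the most negative values, -3.62 ± 0.28 (SE) (adjusted p = 3.0e-36) and -3.21 ± 0.07 (SE), with -2.59 ± 0.26 (SE) and -1.36 ± 0.06 (SE) at Day 2. There *Uchl1* was called lower, while *Gng3* was under the minimum count, as it was at Day 4 when any 1 of the EtOH libraries was left out. The adjusted p of *Uchl1* at Day 4 was too small for the tool to store, and it had 78.3, 74.4 and 75.6 CPM in EtOH and 8.42, 7.58 and 8.65 CPM in OHT at Day 4. *Stmn3* and *Eno2*, a tubulin-binding protein and the neuronal enolase, were the most positive, at 0.59 ± 0.19 (SE) and 0.57 ± 0.18 (SE) (adjusted p = 0.00742 and 0.00546). These higher calls rest on single libraries: the 4 became 0 without Day4_OHT replicate 1, 2 without Day4_OHT replicate 2 or Day4_EtOH replicate 1 or 2, and 1 with a replicate block. A separate list of 8 neural markers summed to 38.1 to 38.8 CPM in EtOH and 34.6 to 36.1 CPM in OHT at Day 4, while *Dcx* and *Neurog2*, which define it, had at most 3 counts in every library. The part of these cells in the neuronal values was not tested, and in bulk RNA fewer cells of a type and less RNA per cell cannot be told apart.

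Further genes of the group belong to the cytoskeleton and to membrane traffic. *Actn3* (chr19:4861216-4877909), the α-actinin of fast muscle fibres, had 22.5, 21.8 and 21.7 CPM in OHT at Day 2 and 19.4, 21.7 and 21.2 CPM in EtOH and 9.59, 10.1 and 8.77 CPM in OHT at Day 4, and the other 9 libraries spanned 19.4 to 23.1 CPM. *Mical3* (chr6:120931707-121130999), a monooxygenase that acts on actin, had CPM of 48.3, 50.0 and 55.7 in EtOH and 39.3, 44.1 and 46.6 in OHT at Day 2. At Day 4 *Mical3* had 46.5, 49.1 and 50.9 CPM in EtOH and 23.9, 21.99 and 22.3 CPM in OHT, so that it too was lower in OHT on Day 2, by less. *Sh3gl2*, the synaptic endocytosis protein endophilin, had 3.24, 3.27 and 3.37 CPM in EtOH and 1.58, 1.72 and 1.60 CPM in OHT at Day 4. The gap was 2.02-fold, on a mean normalised count at Day 4 too low for a call. *Ap1s3*, a clathrin adaptor subunit, had 4.43, 5.57 and 5.32 CPM in EtOH and 2.70, 2.87 and 3.20 CPM in OHT at Day 4, and *Myo1g*, a class I myosin of blood cells, had 10.7, 10.1 and 11.6 CPM in EtOH and 5.31, 6.09 and 6.01 CPM in OHT at Day 4. In *Sh3gl2* the vehicle libraries of Day 4 were all below those of Day 2, whereas *Myo1g* had a vehicle level at Day 4 above its Day 2 level, and its EtOH libraries of Day 2 held 6.47, 6.37 and 6.87 CPM.

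The histone genes were *Hist1h1t* and *Hist1h2aa*, a linker histone and an H2A of male germ cells, and the pseudogene *Hist3h2bb-ps*. *Hist1h1t* (chr13:23695814-23696725) had CPM of 21.4, 21.6 and 21.99 in EtOH and 24.4, 23.3 and 26.3 in OHT at Day 2. At Day 4 *Hist1h1t* had 18.4, 19.9 and 18.2 CPM in EtOH and 9.59, 8.88 and 9.13 CPM in OHT. It was slightly higher in every OHT library than in every EtOH library at Day 2 and 2.05-fold lower at Day 4, the lowest values of the 4 groups. *Hist1h2aa* (chr13:23934462-23934851) had CPM of 6.06, 5.35 and 5.97 in EtOH and 6.29, 6.58 and 6.48 in OHT at Day 2. At Day 4 *Hist1h2aa* had 10.2, 7.70 and 8.96 CPM in EtOH and 4.26, 4.76 and 4.29 CPM in OHT. Its neighbour *Hist1h2ba*, an H2B of male germ cells that starts 306 bases away on the other strand, had CPM of 4.08, 3.51 and 3.68 in EtOH and 5.65, 4.67 and 4.82 in OHT at Day 2. At Day 4 *Hist1h2ba* had 5.63, 6.86 and 5.86 CPM in EtOH and 3.30, 3.23 and 2.72 CPM in OHT. The pair thus shared the Day 4 direction, and *Hist1h2ba* was outside the group because its Day 2 difference of 0.42 was above the band. *Hist3h2bb-ps* had 20.2, 20.8 and 20.1 CPM in EtOH and 11.97, 11.995 and 10.6 CPM in OHT at Day 4, while *Hist3h2a*, whose start lies 173 bases away, differed by 0.06 on the same log2 scale at Day 4. Of the 31-base words of *Hist3h2bb-ps*, 44.1% also occur in *Hist3h2ba*. The posterior SD that RSEM gave for the count of *Hist3h2bb-ps* was at most 0.68% of the count.

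Of 15 variant and testis histone genes tested at Day 4, 8 were called lower and 3 higher, with 5 of the 12 outside the group lower and a median log2 fold change of -0.03. *Hist1h2ba* (-0.99 ± 0.16 (SE), adjusted p = 6.7e-09) and the variant *H2afz* (-0.39 ± 0.03 (SE), adjusted p = 2.4e-29) were the most negative of these. The linker histone *Hist1h1d* (0.39 ± 0.03 (SE), adjusted p = 4.8e-40) and the DNA damage variant *H2afx* (0.33 ± 0.04 (SE), adjusted p = 2.3e-17) were the most positive. The listed genes therefore did not share a direction. *Usp26* (chrX:51753959-51801233), a deubiquitinase of the testis on the X chromosome, had CPM of 9.66, 8.72 and 10.5 in EtOH and 8.96, 11.1 and 9.88 in OHT at Day 2. At Day 4 *Usp26* had 9.36, 9.75 and 8.11 CPM in EtOH and 3.98, 3.79 and 3.51 CPM in OHT, with the OHT libraries of Day 4 2.41-fold below the vehicle and below all other libraries. It was the only one of 14 tested germline and oocyte genes in the group, and 4 of the other 13 were called lower and 1 higher (21.7% and 23.6% of all genes tested).

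*Irgm1*, *Gbp4* and *Slfn5* belong to gene families that interferon induces. *Irgm1* (chr11:48861968-48871683), a GTPase of defence against intracellular pathogens, had CPM of 6.83, 5.72 and 6.59 in EtOH and 6.37, 5.59 and 5.74 in OHT at Day 2. At Day 4 *Irgm1* had 6.52, 7.39 and 6.47 CPM in EtOH and 2.68, 2.94 and 2.47 CPM in OHT. Its 2.52-fold gap at Day 4 was the widest of the 40, and the other 9 libraries lay between 5.59 and 7.39 CPM. *Gbp4*, a guanylate-binding protein, had 4.47, 5.34 and 5.05 CPM in EtOH and 2.27, 2.56 and 2.64 CPM in OHT at Day 4, and 22.6% of its 31-base words occur in other genes. *Slfn5*, a member of the Schlafen family, had 5.41, 5.50 and 5.16 CPM in EtOH at Day 2 and 9.12, 8.89 and 8.53 CPM in EtOH and 4.87, 4.48 and 4.67 CPM in OHT at Day 4, while its OHT libraries of Day 4 overlapped the 5.92, 4.82 and 4.66 CPM of OHT at Day 2. Of 13 interferon response genes tested, 5 were called lower and 2 higher at Day 4 (21.7% and 23.6% of all genes tested). Of the 11 outside the group, 3 were lower. Outside the group *Slfn9* was among the most negative (-0.43 ± 0.07 (SE), adjusted p = 1.2e-09), and the most positive were *Stat2* and the antiviral membrane protein *Bst2* (0.30 ± 0.09 (SE) and 0.19 ± 0.06 (SE), adjusted p = 0.00398 and 0.00845). Of these 2 higher calls 1 was lost without each library other than Day4_EtOH replicate 1, and edgeR made 4. The 11 outside the group had a median of 0.07, so that the list as a whole did not go with *Irgm1* and *Slfn5*.

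Genes of signalling and transcription came next. *Egr1* (chr18:34859823-34864984), the early growth response factor that ERK signalling turns on within minutes, was near the lower limit of abundance. Its CPM were 3.31, 3.64 and 3.70 in EtOH and 4.12, 3.05 and 3.34 in OHT at Day 2. At Day 4 *Egr1* had 3.87, 3.60 and 4.29 CPM in EtOH and 1.48, 1.59 and 1.84 CPM in OHT, a 2.40-fold gap at Day 4. Of 22 genes of the FGF-ERK response tested, 4 were called lower and 8 higher at Day 4 (21.7% and 23.6% of all genes tested), and *Egr1* was the only one of the 40 among them. *Ptpn7*, a tyrosine phosphatase of ERK and p38 in blood cells, had CPM of 10.2, 10.6 and 9.99 in EtOH and 11.05, 10.9 and 11.4 in OHT at Day 2. At Day 4 *Ptpn7* had 9.71, 9.90 and 10.04 CPM in EtOH and 4.97, 4.89 and 4.87 CPM in OHT, and at Day 4 its OHT libraries were 2.01-fold below the vehicle. *Pld1*, which makes phosphatidic acid, had 6.02, 6.56 and 6.76 CPM in EtOH and 2.78, 2.89 and 2.59 CPM in OHT at Day 4, and *Fam53c* had 21.1, 22.2 and 20.9 CPM in EtOH and 10.7, 10.5 and 12.04 CPM in OHT at Day 4. *Mras*, a Ras-type GTPase, had 12.6, 12.5 and 12.2 CPM in EtOH at Day 2 and 24.0, 21.3 and 24.3 CPM in EtOH and 14.0, 14.1 and 13.1 CPM in OHT at Day 4, so that its OHT libraries of Day 4 were above, not below, the Day 2 vehicle libraries. *Gnat2*, the transducin of cone photoreceptors, had 4.75, 5.003 and 4.29 CPM in EtOH and 2.78, 2.46 and 2.98 CPM in OHT at Day 4, and the transcription factor *Mef2b* had 3.98, 4.15 and 4.82 CPM in EtOH and 2.53, 2.33 and 2.11 CPM in OHT at Day 4. *Robo4*, a guidance receptor of endothelium, had 3.38, 3.87 and 3.76 CPM in EtOH at Day 2 and 7.16, 8.76 and 7.79 CPM in EtOH and 4.36, 4.07 and 4.72 CPM in OHT at Day 4.

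The core letters bound by EGR factors, GCGNGGGCG on either strand, occurred in 6 of the 33 promoter windows (18.2%), against 5.55% of all windows. Besides *Tubb3* above, they were found in *Pfkp*, *Crmp1*, *Ina*, *Sh3gl2* and *Akr1b8*, which are shown over the same stretch with the core in capitals so that its place can be compared between the genes. As above, the letters say nothing of binding, and the share over the whole table was not limited to genes of at least 3 CPM.

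Pfkp (chr13:6648752-6648921, minus strand): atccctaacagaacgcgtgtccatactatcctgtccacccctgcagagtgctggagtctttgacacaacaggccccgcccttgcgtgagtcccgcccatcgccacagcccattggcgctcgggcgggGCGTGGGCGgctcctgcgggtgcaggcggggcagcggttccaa
Crmp1 (chr5:37245614-37245783, plus strand): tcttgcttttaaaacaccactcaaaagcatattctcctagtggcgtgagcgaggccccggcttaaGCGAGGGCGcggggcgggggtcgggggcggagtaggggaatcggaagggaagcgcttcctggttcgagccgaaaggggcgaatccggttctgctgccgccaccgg
Ina (chr19:47014531-47014700, plus strand): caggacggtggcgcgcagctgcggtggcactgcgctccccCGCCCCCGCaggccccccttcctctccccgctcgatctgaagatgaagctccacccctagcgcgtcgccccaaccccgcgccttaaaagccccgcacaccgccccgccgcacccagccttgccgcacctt
Sh3gl2 (chr4:85205306-85205475, plus strand): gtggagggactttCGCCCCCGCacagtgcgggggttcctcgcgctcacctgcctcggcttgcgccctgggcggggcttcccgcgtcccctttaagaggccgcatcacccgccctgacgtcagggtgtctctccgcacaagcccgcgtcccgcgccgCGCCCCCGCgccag
Akr1b8 (chr6:34353996-34354165, plus strand): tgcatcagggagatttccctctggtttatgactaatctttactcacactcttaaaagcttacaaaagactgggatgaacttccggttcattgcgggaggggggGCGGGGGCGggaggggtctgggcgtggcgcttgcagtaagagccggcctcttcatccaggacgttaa

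The core began between 137 bases before and 6 bases after the start in these genes, and *Sh3gl2* held it 2 times. The TCF/LEF core CTTTGAT was in 3 windows (9.09% against 3.73% of all), those of *Bcat1*, *Hal* and *Slc7a1*. The letters TGGT, any 5 bases, then CC, as in the wild-type PRDM10 gel-shift probe of the study, were in 5 windows (15.2% against 13.8% of all). No other property of these promoters was measured here.

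*Pfkp* (chr13:6579768-6648777), the platelet type of phosphofructokinase, which commits glucose to glycolysis, was among the most abundant of the 40. Its CPM were 584, 581 and 613 in EtOH and 504, 567 and 578 in OHT at Day 2. At Day 4 *Pfkp* had 292, 310 and 331 CPM in EtOH and 165, 163 and 172 CPM in OHT. It was lower at Day 4 than at Day 2 in vehicle too, and the OHT libraries of Day 4 were a further 1.87-fold lower. Among 22 glycolysis genes tested at Day 4, *Pfkp* was the only one called lower and 14 were called higher (21.7% and 23.6% of all genes tested), with a median log2 fold change of 0.32 over the other 21. *Pfkl*, the liver type of the same enzyme and named here after its values were seen, had 130, 127 and 138 CPM in EtOH and 199, 198 and 200 CPM in OHT at Day 4 (0.60 ± 0.04 (SE), adjusted p = 2.2e-56). The 2 isoforms thus differed in direction at Day 4. *Hal* (chr10:93488768-93519304), which starts the breakdown of histidine, had CPM of 17.7, 17.7 and 18.6 in EtOH and 17.8, 18.1 and 17.8 in OHT at Day 2. At Day 4 *Hal* had 29.0, 27.1 and 26.5 CPM in EtOH and 16.1, 16.5 and 15.9 CPM in OHT, with replicate spreads well under the Day 4 gap. *Aldh1a3*, an enzyme that makes retinoic acid, had 11.8, 10.7 and 12.8 CPM in EtOH and 6.28, 6.32 and 6.95 CPM in OHT at Day 4, the aldo-keto reductase *Akr1b8* had 9.07, 9.33 and 8.14 CPM in EtOH and 4.34, 4.74 and 4.46 CPM in OHT at Day 4, and the phosphatase *Lhpp* had 9.36, 9.31 and 9.25 CPM in EtOH and 5.43, 4.89 and 4.70 CPM in OHT at Day 4. *Pbld1* had 3.84, 3.82 and 3.06 CPM in EtOH at Day 2 and 7.08, 6.79 and 6.70 CPM in EtOH and 2.93, 3.74 and 2.98 CPM in OHT at Day 4, and 24.8% of its 31-base words occur in other genes.

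The remaining genes had no protein product in the annotation or were copies of other genes. *Gm45251*, *Gm37214* and *Gm26909* are annotated as RNAs with no known function, and each was higher in vehicle at Day 4 than at Day 2. *Gm45251* lies within *Rnf170* on the other strand and had 3.62, 3.44 and 3.70 CPM in EtOH at Day 2 and 8.11, 7.67 and 8.24 CPM in EtOH and 3.39, 3.89 and 3.37 CPM in OHT at Day 4. *Gm37214* had 4.77, 4.56 and 4.51 CPM in EtOH and 1.84, 2.12 and 2.25 CPM in OHT at Day 4, and *Gm26909* had 5.25, 4.98 and 5.54 CPM in EtOH and 2.602, 2.71 and 2.69 CPM in OHT at Day 4. The other 3, *Gm28437*, *Gm24497* and *Gm10273*, shared 96.3% to 100% of their 31-base words with another gene, and the posterior SD of their counts was up to 22.8%, 73.4% and 51.4% of the count.

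For these 3 copies the pattern depended on the division of shared reads. *Gm28437* on chromosome 1 is identical over its length to the mitochondrial cytochrome oxidase gene *mt-Co3*, a kind of gene the rule left out by name. Alone it had 1521, 1588 and 1490 CPM in EtOH and 937, 549 and 941 CPM in OHT at Day 4. Summed with *mt-Co3*, the CPM were 2856, 2916 and 2775 in EtOH and 2146, 2109 and 2055 in OHT at Day 2, and 3185, 3168 and 3014 in EtOH and 1956, 1971 and 2005 in OHT at Day 4. The sum was lower in OHT on both days, with log2 differences of -0.44 and -0.66, and would not have met the rule. The sum of the small nuclear RNA *Gm24497* with its 2 near-identical genes *Gm23444* and *Gm23472* differed by -0.17 at Day 4, and that of *Gm10273* with *Timm23*, an importer of mitochondrial proteins, by -0.28. Neither would have met the rule, which leaves 37 of the 40 genes whose counts do not rest on such a copy.

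Read over the time course, the 40 genes fell into 4 shapes, with a log2 change of 0.25 or more between the days taken as a change. The shapes use group means alone, and a smaller change is named level even where libraries or calls differed between the days. In 19 genes, among them *Irgm1*, *Tubb3*, *Ina*, *Hist1h1t*, *Actn3* and *Usp26*, vehicle was level and OHT was lower at Day 4. In 11, among them *Slc7a1*, *Bcat1*, *Hal*, *Mras*, *Robo4* and *Slfn5*, vehicle was higher at Day 4 and OHT was level. In 7 genes, among them *Slc1a4* and *Herpud1*, vehicle was higher and OHT was lower, and in *Pfkp*, *Gbp4* and *Sh3gl2* both were lower, OHT by more. Yet *Hist1h1t* and *Hist3h2bb-ps*, of the first shape, were called lower in vehicle at Day 4, and all vehicle libraries of *Actn3* were lower too. The OHT libraries of *Bcat1* and *Hal* at Day 4 were all below those of Day 2, whereas the vehicle libraries of *Gbp4* overlapped between the days. A low value at Day 4 in OHT against vehicle therefore stood for a lower level than at Day 2 in some genes and for a level that had not followed the vehicle in others.

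Since the same libraries served the choice of the genes, the counts of calls between the days are descriptions too. In vehicle 17 of the 40 were called higher at Day 4 than at Day 2 and 3 lower (20.6% and 20.5% of all genes tested). In OHT 25 of 37 tested were called lower and 0 higher (23.1% and 30.9% of all genes tested), and at an unadjusted p under 0.05 or by edgeR 1 was higher. By libraries alone, the EtOH libraries of Day 4 were all above those of Day 2 in 20 genes and all below in 5 (33.4% and 27.2% of the 11328 genes). The OHT libraries of Day 4 were all below those of Day 2 in 30 genes and all above in 2 (34.4% and 35.6% of the 11328). All 39 genes tested were called lower at Day 4, the median fold change being -0.97 on the log2 scale, which the rule required, as it did the lack of overlap (30.6% of the 11328 genes had OHT below EtOH without overlap at Day 4). At Day 2, 5 of the 40 were called lower and 0 higher (10.8% and 9.24% of all genes tested), namely *Herpud1*, *Slc1a4*, *Mical3*, *Pfkp* and *Bcat1*, and at an unadjusted p under 0.05 or by edgeR there were 0 higher as well. The Day 2 groups did not overlap in 14 of the 40 genes (42.7% of the 11328), with OHT lower in 9 and higher in 5. The interaction of treatment and day was called in the lower direction for 38 and in the higher for 0 (13.6% and 18.9% of all genes tested), again a consequence of the choice, and the exceptions were *Gm24497* and *Gnat2*.

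**Figure D3:**
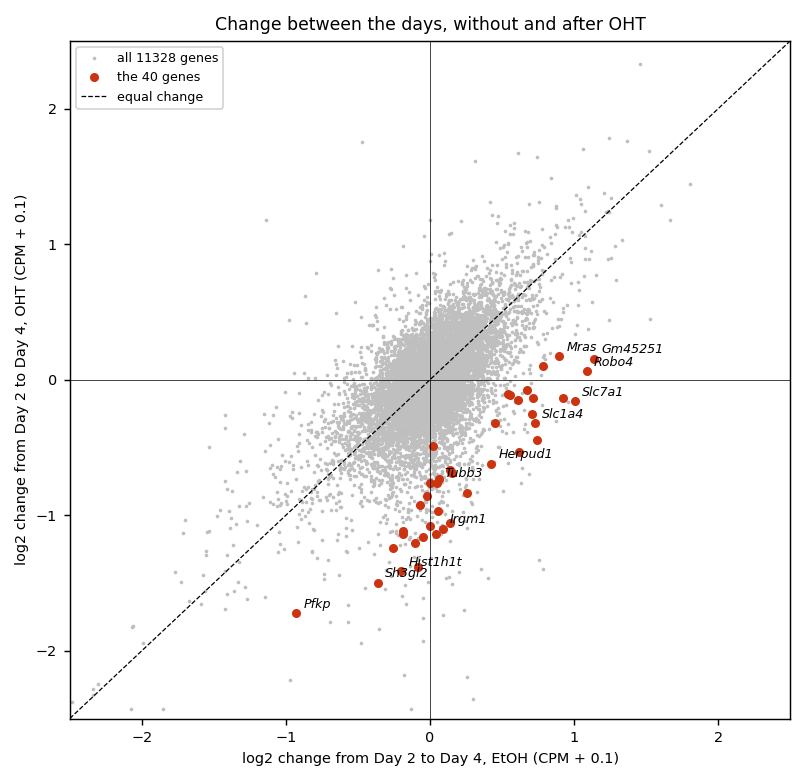
Log2 change in mean CPM (0.1 added) from Day 2 to Day 4 in EtOH (horizontal) and in OHT (vertical) for all 11328 genes in grey and the 40 genes in red, with the dashed line marking equal change. The 40 genes lie below the line by their choice, and they spread along it from *Pfkp*, lower in both, to *Gm45251*, *Robo4* and *Mras*, higher in vehicle and near level in OHT.

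Levels can be compared between genes only per length, for which the deposited TPM (transcript abundances scaled to a fixed total in each library) served. Leaving out the copied genes *Gm28437* and *Gm24497*, the highest mean TPM in vehicle at Day 4 were 87.2 for *Bcat1*, 78.1 for *Pfkp*, 64.4 for *Tubb3* and 58.5 for *Hist3h2bb-ps*. The lowest were 1.12 for *Egr1*, 1.28 for *Sh3gl2*, 1.35 for *Slfn5* and 1.61 for *Gbp4*.

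Binding of PRDM10 was set beside that of the genes that were lower on both days. Of the 177 genes with a Day 4 log2 difference of -0.75 or less, 120 were also below -0.25 at Day 2, and 91 of those 120 (75.8%) were on the study's list of PRDM10-bound genes, a list from ChIP-seq that was not chosen on these libraries. Of the 40 genes, 1 (2.5%), *Fam53c*, was on that list, against 418 of the 11328 genes (3.69%). Both sets were chosen by their values, so that no test was made of the difference in share.

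**Figure D4:**
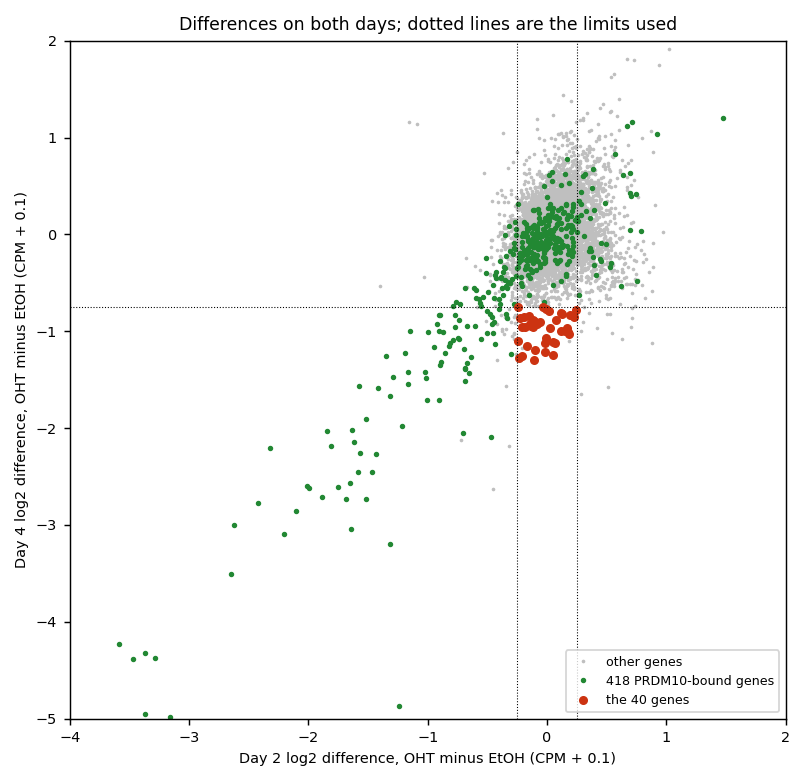
Log2 difference in mean CPM (0.1 added) between OHT and EtOH at Day 2 (horizontal) and Day 4 (vertical) for the 11328 genes, with 418 PRDM10-bound genes in green, the 40 genes in red and the limits of the rule as dotted lines, and 10 genes lie outside the drawn range. Of 120 genes below both limits on the left, 91 are bound, and the 40 genes fill the window between the dotted lines.

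The mean length of the transcripts that RSEM assigned to a gene was a measure that the rule did not use, and it was tested with limma over 9628 genes at Day 4. Of the 40 genes, 12 had 1 length in all 6 libraries and could not be tested. Of the other 28, 0 were called, against 12 of 9628 genes (0.125%), and 3 had an unadjusted p under 0.05, namely *Pfkp*, *Fam53c* and *Irgm1*. Their log2 differences in length were 0.09 ± 0.02, 0.04 ± 0.01 and -0.02 ± 0.01 (SE), with adjusted p of 0.173, 0.165 and 0.348. A change in transcript use was thus not detectable for these genes with 3 libraries per group.

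Several of the other lists held none of the 40 genes. The 40 genes were 0.353% of the 11328 genes, so that lists as short as these would mostly hold none. Their absence from these lists was not tested and is a description only. Of 24 cholesterol genes tested, 20 were called lower and 1 higher at Day 4, but 16 were already lower at Day 2, and the group held none. Of 25 pluripotency genes, 6 were called lower and 12 higher, and the group held none, nor did it hold any of 11 WNT response genes (5 lower, 4 higher) or of 16 formative and primed genes (5 lower, 3 higher). Without Day4_OHT replicate 2 the WNT response genes called lower were 3, and without Day4_EtOH replicate 1 the formative and primed genes called higher were 5.

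**Figure D5:**
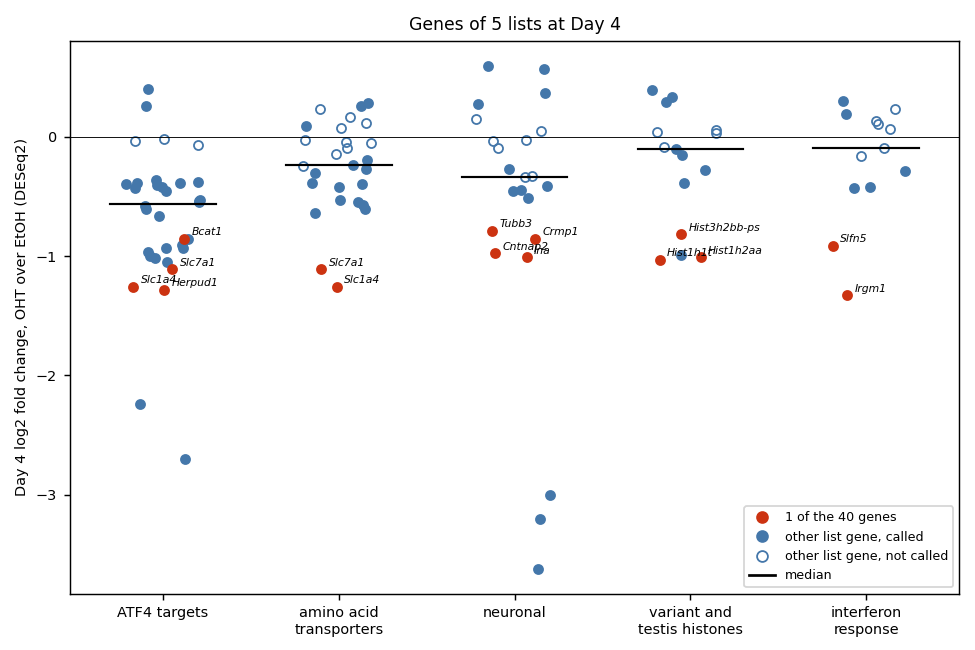
Day 4 log2 fold change (OHT over EtOH, DESeq2) of the tested genes of 5 lists, with the 40 genes in red, other genes in blue (filled if called), and a line at each list's median. The medians are -0.57 for ATF4 targets, -0.23 for amino acid transporters, -0.33 for neuronal genes, -0.10 for histones and -0.09 for interferon response genes.

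Genes just inside and just outside the limits had almost the same values. Just inside the Day 4 limit were *Hal*, *Mras* and *Gnat2* at -0.77, -0.75 and -0.75, and just outside it were *Nlrx1*, *Mei4* and *Mdfic* at -0.74, -0.74 and -0.73. *Nlrx1*, a mitochondrial sensor protein of innate immunity, had 14.9, 15.9 and 14.4 CPM in EtOH and 9.39, 7.99 and 9.52 CPM in OHT at Day 4, also without overlap. At the Day 2 limits, *Ap1s3*, *Mical3* and *Gnat2* lay just inside, with *Calca*, *Notum* and *Gpt2* just outside at -0.26, -0.26 and -0.27.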

How the data were processed

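RNA-seq libraries were stranded and made from rRNA-depleted total RNA. Per the labels and the study's methods, the authors used STAR (version 2.6.0c) to map reads to GRCm38.p6 and quantified GENCODE genes with RSEM, 1 library at a time. The deposited expected counts are RSEM's estimates, in which a read pair shared by several genes is divided among them, so that near-identical copies are uncertain. The deposited TPM are scaled within each library, and the deposited mean transcript lengths follow the transcripts found. The authors' tables of fold changes and p-values were not used.

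Expected counts were rounded, and differences were tested in R 4.3.3 by DESeq2 1.42.0 (Wald test, median-of-ratios size factors, Benjamini-Hochberg) on the 6 libraries of each contrast, or on all 12 for the interaction. A call needed both a mean normalised count over 100 and an adjusted p below 0.05. Genes at or under that count were fitted but are not counted among the genes tested. Lengths were tested on the log2 scale with limma (3.58.1, trend), leaving out genes of 1 length. The Day 4 contrast of OHT and EtOH (DESeq2 and edgeR) and the length test were tried on simulated data. The interaction and the other contrasts were not. Alternatives were edgeR (4.0.16), TMM or total-count scaling, length offsets, a replicate block, all 12 libraries, other filters and each library left out. Pairing was not used, since same-numbered libraries did not deviate together. Intervals from counts would cover counting error only, so SDs and SEs over libraries are given.

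Symbols came from a gene name table (54079 of 54146 identifiers matched), and positions from GENCODE vM21 on GRCm38. Shared sequence was the share of 31-base words of the longest transcript found in other genes. The 40 genes and the gene lists were chosen with earlier results of these data known. Genes named were the 25 with the most negative Day 4 difference, all on a list or bound by PRDM10, 3 on each side of the Day 4 limit, *Prdm10*, and, for lists with 2 or more of the 40, the 2 most negative and 2 most positive other genes called. Other names, among them the rest of the 40, the genes at the Day 2 limits and the partners of copied or neighbouring genes, were chosen after their values were seen. Some items that this rule names are not reported here.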

Additional observations from a re-analysis of the deposited data

Results flagged for a closer look

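Among the genes named from the lists but outside the 40, 13 were called in the interaction of treatment and day (DESeq2, all 12 libraries). Of all genes tested, 13.6% were called in the lower direction and 18.9% in the higher. The named genes were picked by their Day 4 fold change, and the same Day 4 libraries enter the interaction. Its values and p-values below are therefore descriptions, not independent support. A negative interaction means a lower log2 fold change at Day 4 than at Day 2.

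In the ATF4 list the interaction was -2.20 ± 0.22 (SE), adjusted p = 1.9e-20 for *Chac1* and -1.87 ± 0.18 (SE), adjusted p = 4.1e-23 for *Nupr1*. It was positive for *Ddit3* (0.57 ± 0.17 (SE), adjusted p = 0.00472) and *Ppp1r15a* (0.31 ± 0.09 (SE), adjusted p = 0.00404). The 4 genes thus belong to 1 list and moved apart between the days.

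Among amino acid transporters it was -0.48 ± 0.06 (SE), adjusted p = 4.9e-14 for *Slc7a5* and -0.50 ± 0.07 (SE), adjusted p = 1.1e-10 for *Slc7a7*. Among neuronal genes it was -1.85 ± 0.08 (SE), adjusted p = 6.9e-111 for *Uchl1*.

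Among histone genes the interaction was -1.37 ± 0.20 (SE), adjusted p = 7.6e-10 for *Hist1h2ba*, which starts beside *Hist1h2aa*, and -0.18 ± 0.06 (SE), adjusted p = 0.00906 for *H2afz*. It was positive for *H2afx* (0.46 ± 0.08 (SE), adjusted p = 1.0e-07) and *Hist1h1d* (0.38 ± 0.05 (SE), adjusted p = 7.3e-13). Among interferon response genes it was -0.49 ± 0.09 (SE), adjusted p = 4.1e-07 for *Slfn9* and 0.30 ± 0.12 (SE), adjusted p = 0.0418 for *Stat2*.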

How the results depend on the processing

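The 40 genes depended most on the minimum level, on the use of TPM and on the value added to CPM. TMM or DESeq2 scaling changed them no more than single libraries did. With a minimum mean of 1 CPM in place of 3 the rule found 82 genes, all 40 among them. With TMM or DESeq2 scaling it found 37 (35 of the 40), with 1 added in place of 0.1 it found 34 (32 of the 40), and with deposited TPM, which shifts the minimum by gene length, 36 (24 of the 40). With each library left out it found 36 to 47, with 34 to 39 of the 40. Of the 40, 13 were found under all 17 settings. The Day 4 calls of the 40 ranged from 37 to 40 over all settings, and none of the 33 named members reversed. *Egr1* fell below the minimum count, and so was not called, without Day4_EtOH replicate 1 or 3. *Sh3gl2* passed it in 4 settings. For each list, the total of calls stayed within 1.5 times under edgeR, the replicate block and each library left out, but the few calls against a list's main direction did not. With the replicate block the higher calls fell from 4 to 1 in neuronal genes, from 3 to 1 in amino acid transporters and from 2 to 1 in ATF4 targets and interferon response genes. With edgeR formative and primed genes had 5 higher calls in place of 3. Same-numbered libraries of Day 4 correlated at 0.039, 0.144 and -0.115 in their deviations from the group means, so that the numbers do not pair them and with the replicate block 38 of the 40 were called lower at Day 4 and 35 in the interaction. Depth limits genes such as *Egr1*, at 58 counts in its lowest library.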
